A study of Mus musculus with 6 samples.

Results

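The transcripts of 10 amino acid transporter genes, Slc7a5, Slc3a2, Slc1a5, Slc38a1, Slc38a2, Slc38a9, Slc7a1, Slc7a6, Slc7a11 and Slc43a2, were measured in naive CD4+ T cells. They were taken by symbol from a given list, and all 10 were found among the 55487 genes of each library. Poly(A) RNA had been sequenced from spleen cells labelled naive CD4+ T cells of C57BL6/J mice with the genotype WT. The untreated group had 3 libraries, and the rapamycin group, from mice dosed in vivo with this inhibitor of the kinase mTOR, had 3, and mTOR inhibition is the subject that the study's title names. The labels used here give no dose, duration, age, sort gate or number of mice, and do not say whether the libraries of a group came from separate mice.

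Amino acid transporters carry leucine, glutamine, arginine, cystine and other amino acids across the plasma membrane or out of the lysosome. A resting naive T cell needs few of them, and stimulated T cells are known to raise Slc7a5, Slc3a2 and Slc1a5 as they start to grow. Imported leucine and arginine switch on mTOR complex 1, the rapamycin-sensitive form of mTOR, at the lysosome. This complex in turn is known to promote the expression of several transporters.

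Library totals ran from 9712671 to 11393317 expected counts in the untreated group and from 8757280 to 9315370 in the rapamycin group. All 8 naive CD4+ T cell markers listed (among them Cd3e, Cd4, Lef1, Tcf7 and Ccr7) were present, with a summed level of 5355 to 5418 CPM in untreated and 6183 to 6273 CPM in rapamycin libraries. CPM are counts divided by library size, with a factor for composition. Markers of other cells also differed between the groups. The 8 myeloid markers summed to 76.1 to 79.7 CPM in untreated and 39.5 to 44.2 CPM in rapamycin libraries, with none at 0 in all libraries. The 2 CD8 genes summed to 19.1 to 20.5 and 88.0 to 91.0 CPM. The 5 markers of activated T cells, all detected, summed to 42.5 to 48.8 and 20.2 to 23.0 CPM. Most of this sum was Cd44, which fell from 33.7 to 10.7 CPM, and Mki67 fell from 4.73 to 2.90 CPM. Tnfrsf4 (5.56 and 4.53 CPM) and Il2ra, which was higher with rapamycin (1.94 and 3.12 CPM), were not called. The 5 B cell markers summed to 441 to 472 and 424 to 447 CPM, the 4 plasma cell markers to 63.4 to 65.5 and 50.9 to 55.6 CPM, and the 6 NK cell markers to 62.3 to 65.0 and 58.1 to 60.6 CPM, all detected. Within the last lists single genes went opposite ways: Jchain fell from 11.6 to 0.788 CPM and Sdc1 from 1.51 to 0.448 CPM while Prdm1 rose from 8.94 to 18.7 CPM, and Gzma fell from 7.79 to 2.18 CPM and Klrb1c from 2.35 to 0.751 CPM while Nkg7 rose from 4.64 to 6.82 CPM and Prf1 was at 40.7 and 41.2 CPM. The 5 erythroid markers, with 1 at 0 in all libraries, summed to 5.76 to 8.64 and 1.68 to 2.82 CPM. Their part in the transporter results was not tested. In bulk RNA, fewer cells of one type and less RNA per cell cannot be told apart.

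Of the 10 transporter genes, 9 had enough counts to be tested, and Slc7a11 did not. Slc43a2, Slc38a1, Slc38a2, Slc1a5, Slc38a9 and Slc7a6 rose with rapamycin, while Slc7a5, Slc3a2 and Slc7a1 fell, by edgeR's quasi-likelihood test at an adjusted p under 0.05. Among all 11950 genes tested, 47.4% were called, 24.1% as higher and 23.3% as lower. Calls were more frequent at higher levels: among the 5594 genes whose log2 CPM averaged 5 or more, 64.2% were called, 38.1% as higher and 26.1% as lower. A call as such was therefore common at the levels of these transporters, and the sizes of the changes are given below gene by gene. The CPM of the 2 groups did not overlap for any of these 9 genes, which was also true of 53.8% of the genes tested. The median log2 fold change, rapamycin over untreated, was 0.21 over the 9 genes and −0.01 over all genes tested. Variance between libraries of a group was 1.62 times counting noise in the untreated and 1.58 times in the rapamycin group, and because separate mice are not stated, the p-values rest on a spread that may be only technical.

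Log2 fold changes followed gene length in this comparison, and most transporter transcripts are long. Spearman's rho was 0.51 across 9979 genes, which share the same 6 libraries and are not independent replicates. Genes of 4000 to 5000 bases had a median log2 fold change of 0.14 and those of 5000 to 7000 bases of 0.21, against −0.09 for genes of 1500 to 2000 bases. A correction for length in each library left rho at 0.01. With this correction Slc1a5, Slc38a2 and Slc43a2 were called higher and Slc7a5 and Slc7a1 lower, while 20.2% of all genes were called higher and 18.3% lower, and the median of the 9 genes was 0.07. On log2(TPM + 1), where TPM is a level scaled for both length and depth, the same 6 genes were called higher as without correction, and Slc7a5 alone lower, with 22.8% of all genes called higher and 9.63% lower and a median of 0.09 over all genes (0.10 on log2(TPM + 0.1)). Offsets from the effective lengths of each library gave 6 called higher and 1 lower, Slc7a5, against 16.2% and 15.1% of all genes. Slc43a2, Slc1a5, Slc38a2 and Slc7a5 thus kept their direction and their call in all 17 alternative analyses. The cause of the length trend was not tested.

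**Figure D1:**
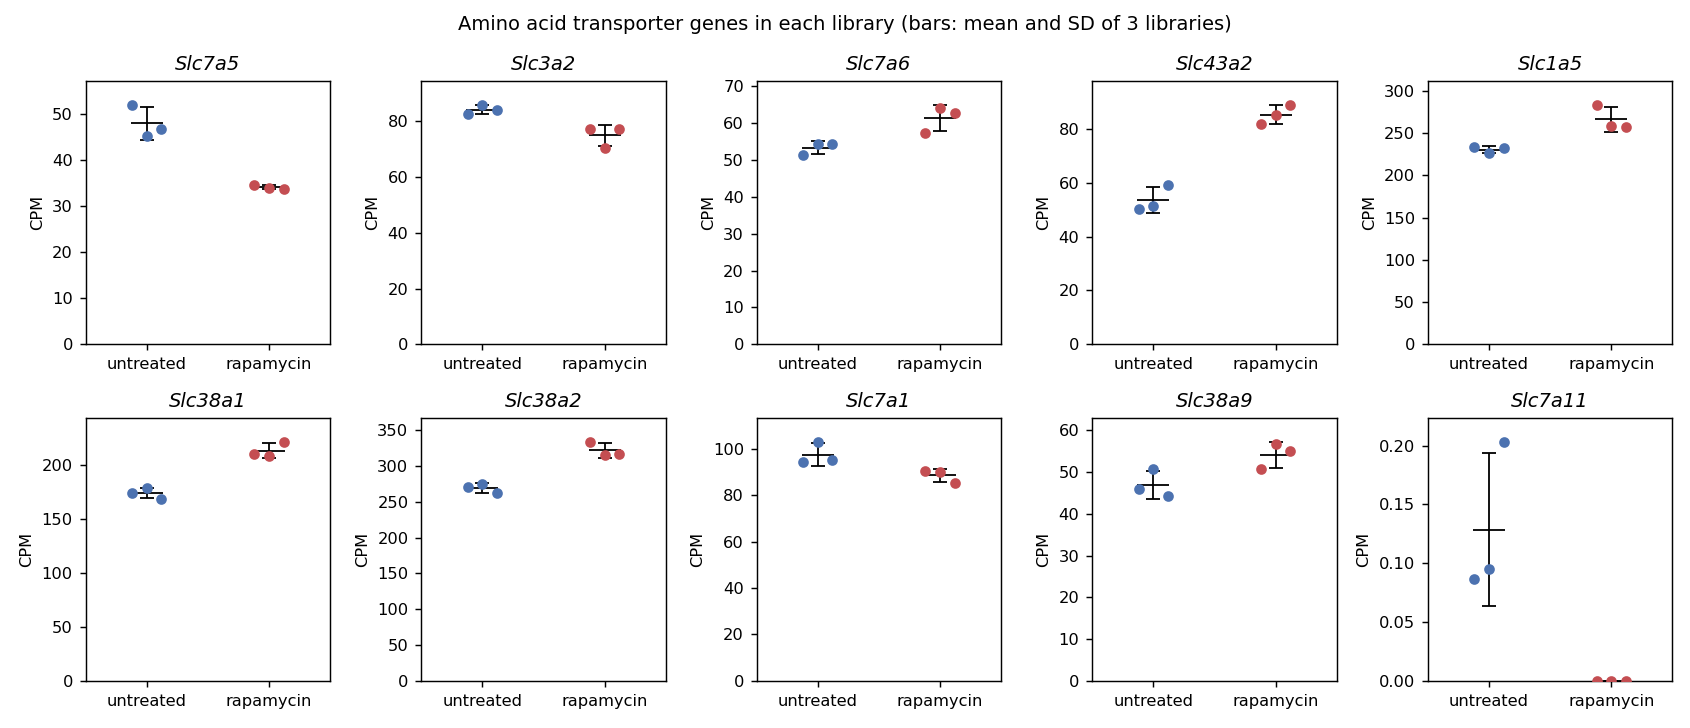
Level of each of the 10 amino acid transporter genes in each library, in CPM on linear axes that start at 0, with blue points for the 3 untreated and red points for the 3 rapamycin libraries and black bars for the mean ± SD. The points of the groups are apart in every panel, with Slc43a2 between 50.2 and 59.3 CPM untreated and between 81.9 and 89.0 CPM with rapamycin, and Slc7a11 rests on no more than 2 counts in a library.

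Promoter sequence from RefSeq (GRCm38.p6, the assembly that mm10 names) was available for 7 of the 10 genes, all except Slc7a5, Slc1a5 and Slc38a1. The 250 bases before the start are shown for Slc43a2, the gene with the largest change, for Slc38a2, the most abundant by counts, for the heavy chain gene Slc3a2, and for Slc7a11, which was barely detected. 4 motifs were searched on both strands: TGATGNAA, the core of the element bound by C/EBP and ATF4 dimers, CACGTG, the E-box, TGACNNNGC, the core of the antioxidant response element, and CCAAT. Capitals mark their matches, which did not overlap each other, and each line reads 5′ to 3′ on the strand of the gene.
Slc43a2: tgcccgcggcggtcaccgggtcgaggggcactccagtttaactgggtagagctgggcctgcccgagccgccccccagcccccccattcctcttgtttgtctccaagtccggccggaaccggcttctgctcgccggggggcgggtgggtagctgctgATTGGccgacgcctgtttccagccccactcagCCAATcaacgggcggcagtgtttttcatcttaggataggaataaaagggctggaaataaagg
Slc38a2: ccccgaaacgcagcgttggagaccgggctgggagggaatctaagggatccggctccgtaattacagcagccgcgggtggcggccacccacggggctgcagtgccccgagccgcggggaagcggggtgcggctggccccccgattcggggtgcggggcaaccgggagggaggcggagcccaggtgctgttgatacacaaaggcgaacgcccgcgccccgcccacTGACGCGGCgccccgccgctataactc
Slc3a2: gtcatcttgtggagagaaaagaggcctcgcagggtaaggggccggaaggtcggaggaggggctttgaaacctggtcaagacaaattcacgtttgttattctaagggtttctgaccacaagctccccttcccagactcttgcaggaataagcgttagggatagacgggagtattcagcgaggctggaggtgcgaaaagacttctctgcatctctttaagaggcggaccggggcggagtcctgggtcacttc
Slc7a11: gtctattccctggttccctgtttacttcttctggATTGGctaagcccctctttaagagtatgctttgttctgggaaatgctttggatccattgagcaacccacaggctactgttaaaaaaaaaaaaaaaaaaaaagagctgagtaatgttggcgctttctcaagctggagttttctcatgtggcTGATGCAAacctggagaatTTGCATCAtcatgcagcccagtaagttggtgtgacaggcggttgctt
The Slc43a2 sequence lies at chr11:75531444-75531693 on the plus strand, and those of Slc38a2 (chr15:96699729-96699978), Slc3a2 (chr19:8713898-8714147) and Slc7a11 (chr3:50443614-50443863) lie on the minus strand. The Slc3a2 entry starts within the annotated gene, which has further starts upstream. Slc43a2 held 2 CCAAT boxes, 1 on each strand, 94 to 90 and 62 to 58 bases before the start, and CCAAT occurred in 33.9% of all 32851 promoter windows of this length. Slc38a2 held 1 antioxidant response core, 27 to 19 bases before the start, a motif in 10.2% of windows, and 1 entry each of Slc7a1 and Slc7a6 held it once too. A second Slc43a2 entry held another 2 CCAAT boxes. Slc7a11 held 2 copies of TGATGNAA, 66 to 59 and 47 to 40 bases before the start on opposite strands, a motif in 3.45% of windows, and 1 CCAAT box. Slc3a2 held none of the 4, and the E-box, found in 6.02% of windows, was in none of the 10 entries of the 7 genes. A match describes these letters only.

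Slc7a5 and Slc3a2 encode the light and heavy chain of the heterodimer known as LAT1 and CD98hc, the main leucine importer of growing T cells. Slc7a5 (ENSMUSG00000040010, mm10 chr8:121881150-121907694, minus strand, 3 annotated transcripts) was at 52.0, 45.2 and 46.8 CPM in the untreated libraries and at 34.6, 34.0 and 33.8 CPM in the rapamycin libraries. All 3 rapamycin libraries lay below the lowest untreated one and close to each other. The mean went from 48.0 ± 3.58 to 34.1 ± 0.422 CPM (SD, n = 3 libraries a group), 1.41-fold higher in untreated cells, with a log2 fold change of −0.49 ± 0.07 (SE, adjusted p = 5.5e-08). Slc7a5 was one of the genes that length correction did not weaken, with −0.55 ± 0.07 (adjusted p = 5.6e-09). Over the 17 alternatives its log2 fold change lay between −0.59 and −0.43. Slc7a5 lies within the span of Gm20388, annotated on the other strand, and the strand setting of the counting is not given. Whether exons of the pair overlap was not examined, so shared reads are possible. All 6 Slc7a5 counts were whole numbers.

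Slc3a2 (ENSMUSG00000010095, mm10 chr19:8706882-8723369, minus strand, 9 annotated transcripts) was at 82.6, 85.9 and 84.2 CPM in untreated and at 77.1, 70.6 and 77.2 CPM in rapamycin libraries. The groups were apart, and rapamycin replicate 2 was lowest. The mean went from 84.2 ± 1.64 to 75.0 ± 3.77 CPM, that is by −0.17 ± 0.05 on the log2 scale (adjusted p = 0.00567), or 1.12-fold higher in untreated cells. This call was lost with length correction (−0.08 ± 0.05, adjusted p = 0.237), with effective-length offsets (−0.11, adjusted p = 0.253) and without rapamycin replicate 2 (−0.13, adjusted p = 0.0655). In TPM the groups overlapped, at 71.3, 74.7 and 76.2 in untreated and 71.8, 79.8 and 71.4 in rapamycin libraries, and the sign turned, with a difference of 0.00 ± 0.06 on log2(TPM + 1) (adjusted p = 0.975). The mean transcript length that RSEM assigned to Slc3a2 was 1482 bases in rapamycin replicate 2 and 1692 to 1770 bases in the other 5 libraries, and this library was lowest in CPM and highest in TPM. The median over all genes tested was 0.09 on log2(TPM + 1) and −0.01 by counts, so the sign on these scales is not read against the same baseline. The heavy chain transcript was thus lower by counts, and no difference was detectable per length.

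Slc7a6 encodes another light chain of CD98hc, y+LAT2, which exchanges cationic amino acids for neutral ones and sodium. It lies at mm10 chr8:106168857-106198706 on the plus strand (ENSMUSG00000031904, 7 annotated transcripts). Its level was 51.4, 54.2 and 54.4 CPM in untreated and 57.3, 64.1 and 62.7 CPM in rapamycin libraries. The groups did not overlap, although rapamycin replicate 1 was near the untreated libraries. The mean rose from 53.3 ± 1.68 to 61.4 ± 3.56 CPM, that is by 0.20 ± 0.06 on the log2 scale (adjusted p = 0.00471). Length correction ended the call (0.12 ± 0.06, adjusted p = 0.107), whereas the value on log2(TPM + 1) was 0.38 ± 0.09 (adjusted p = 0.0197).

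Slc7a11 encodes xCT, the light chain that imports cystine in exchange for glutamate and is known as a target of ATF4 and NRF2. The gene (ENSMUSG00000027737, mm10 chr3:49892526-50443614, minus strand) had 1, 1 and 2 counts in the untreated libraries and 0 in each rapamycin library. All 6 values lay under the floor of 3 counts, which was at most 0.348 CPM in a library, so no fold was formed and a difference was not detectable at this depth. This floor covers counting error only.

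The balance of the light chains was compared within each library, in TPM because the genes differ in length. Slc7a5 made up 53.4%, 47.9% and 48.5% of the TPM of the CD98hc light chain genes (Slc7a5, Slc7a6, Slc7a7, Slc7a8, Slc7a10 and Slc7a11) in untreated libraries and 38.2%, 33.4% and 35.3% in rapamycin libraries. Slc7a6 made up 48.1% ± 2.83 (SD, n = 3) and 62.6% ± 2.76 of it. Slc7a5 and Slc7a6 were thus near equal in untreated libraries, and Slc7a6 was the larger in all 3 rapamycin libraries. The ratio of Slc7a6 to Slc7a5 went from 0.967 ± 0.112 to 1.76 ± 0.194 in TPM and from 1.12 ± 0.113 to 1.80 ± 0.125 in CPM. The ratio of Slc7a5 to Slc3a2 was 0.345, 0.273 and 0.275 in untreated and 0.216, 0.196 and 0.227 in rapamycin libraries, all below the untreated ones, a difference of −0.47 on the log2 scale. In CPM this difference was −0.32. Summed light chain TPM overlapped between the groups at 44.0 ± 1.78 and 44.5 ± 3.35, and so did its ratio to Slc3a2, at 0.594 ± 0.0442 and 0.599 ± 0.0404. The exact two-sided permutation p was 0.1 for each of the ratios and shares whose groups were apart, the smallest that 3 libraries against 3 allow, and 0.133 after Benjamini-Hochberg adjustment over the 12 tested, so none can pass 0.05.

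**Figure D2:**
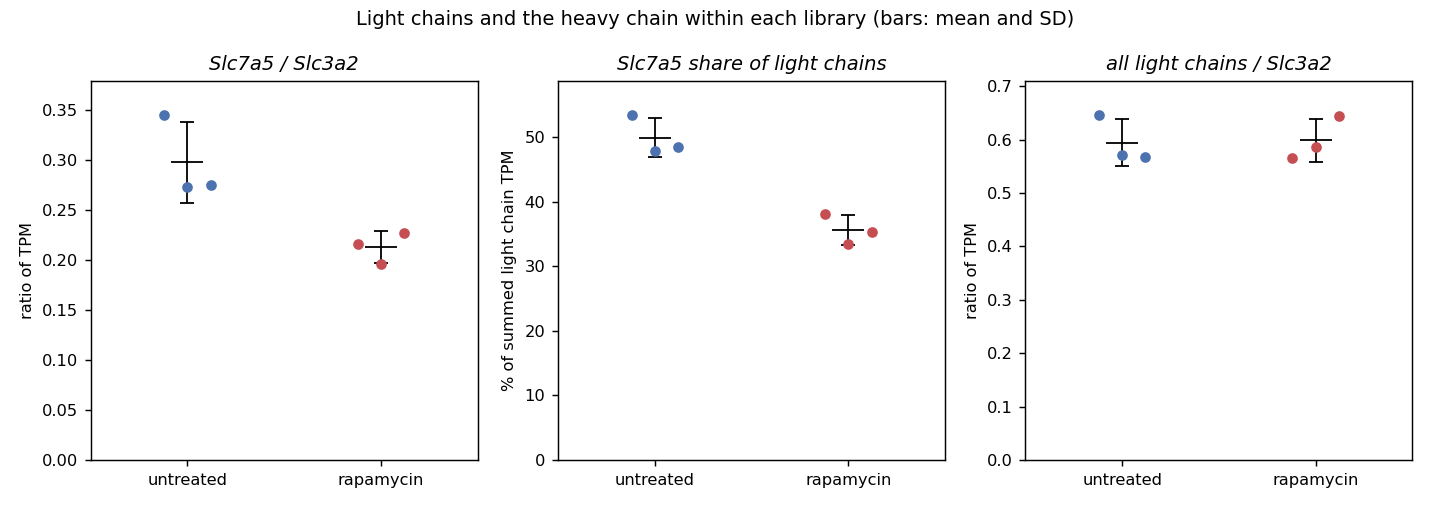
Light chain and heavy chain genes of CD98 within each library, from TPM on linear axes that start at 0: the ratio of Slc7a5 to Slc3a2, the share of Slc7a5 in the summed light chain TPM in percent, and the ratio of all light chains to Slc3a2, with blue points for 3 untreated and red points for 3 rapamycin libraries and bars for the mean ± SD. The first goes from a mean of 0.298 to 0.213 and the share from 49.9% to 35.6%, while the ratio of all light chains overlaps at 0.594 and 0.599.

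Slc43a2 encodes LAT4, which carries leucine and other large neutral amino acids by facilitated diffusion and needs no heavy chain. The gene (ENSMUSG00000038178, mm10 chr11:75531694-75577575, plus strand, 11 annotated transcripts) was at 50.2, 51.3 and 59.3 CPM in untreated and 81.9, 85.2 and 89.0 CPM in rapamycin libraries. Every rapamycin library was well above the highest untreated one. Its mean rose 1.60-fold, from 53.6 ± 4.94 to 85.3 ± 3.54 CPM, with a log2 fold change of 0.67 ± 0.06 (adjusted p = 2.9e-15), the largest change in either direction among the 9 genes tested. Length correction gave 0.50 ± 0.06 (adjusted p = 1.9e-10), and the range over the 17 alternatives was 0.50 to 0.75. In CPM Slc43a2 stood at 1.12 ± 0.152 times Slc7a5 in untreated and 2.50 ± 0.132 times in rapamycin libraries, so that the genes of these leucine carriers moved in opposite directions. The start of Slc43a2 is overlapped by Gm45606 on the other strand (mm10 chr11:75530277-75533071), which went from 12.7 ± 0.457 to 19.4 ± 0.785 CPM, that is by 0.61 ± 0.12 on the log2 scale (adjusted p = 1.1e-05). The strand setting of the counting is not given in the sources used here, so reads from Slc43a2 and Gm45606 cannot be told apart where they overlap, and 5 of the 6 Slc43a2 counts were not whole numbers.

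The other carriers of neutral amino acids among the 10 genes, Slc1a5, Slc38a1 and Slc38a2, were each called higher, by less than Slc43a2, and Slc38a1 not with length correction. Slc1a5, which encodes ASCT2, a sodium-dependent exchanger of glutamine and other small neutral amino acids, was at 234, 226 and 232 CPM in untreated and 283, 259 and 257 CPM in rapamycin libraries (ENSMUSG00000001918, mm10 chr7:16781340-16798274, plus strand). Rapamycin replicate 1 was highest, and the groups were apart. The mean rose from 230.6 ± 4.10 to 266.5 ± 14.6 CPM, that is by 0.21 ± 0.03 on the log2 scale (adjusted p = 1.1e-07), which was 0.20 ± 0.03 with length correction (adjusted p = 3.4e-07). Slc1a5 was the highest of the 10 genes per length in both groups.

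Slc38a1 and Slc38a2 encode SNAT1 and SNAT2, sodium-coupled importers of glutamine and alanine, and lie near each other on chromosome 15. Slc38a1 (ENSMUSG00000023169, mm10 chr15:96571418-96642913, minus strand) was at 174, 179 and 169 CPM in untreated and 210, 209 and 222 CPM in rapamycin libraries. Slc38a2 (ENSMUSG00000022462, mm10 chr15:96687392-96699730, minus strand) was at 270, 275 and 262 CPM in untreated and 334, 316 and 317 CPM in rapamycin libraries. Both genes had all rapamycin libraries above all untreated ones. Slc38a1 rose from 174.0 ± 4.93 to 213.3 ± 7.17 CPM, that is by 0.29 ± 0.03 on the log2 scale (adjusted p = 2.4e-11). Slc38a2 rose from 269.1 ± 6.50 to 322.0 ± 10.3 CPM, that is by 0.26 ± 0.03 on the log2 scale (adjusted p = 1.8e-11). Their transcripts are among the longer ones, at a mean of 5597 and 4896 bases, and length correction brought both to 0.07 ± 0.03, which ended the call for Slc38a1 (adjusted p = 0.0845) and kept it for Slc38a2 (adjusted p = 0.0324). On log2(TPM + 1) the values were 0.47 ± 0.07 and 0.34 ± 0.05. The ratio of Slc38a1 to Slc38a2 in TPM overlapped between the groups, at 0.544 ± 0.0347 and 0.597 ± 0.0266 (exact two-sided permutation p = 0.2).

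Over the 6 libraries, Slc7a1 had the greatest mean transcript length of the 10 genes, at 6852 bases. This gene (ENSMUSG00000041313, mm10 chr5:148327410-148399904, minus strand) encodes CAT1, the importer of arginine and lysine. It was at 94.1, 103 and 95.2 CPM in untreated and 90.2, 90.1 and 85.3 CPM in rapamycin libraries. The groups were apart by less than the range within the untreated group. The mean fell from 97.4 ± 4.88 to 88.5 ± 2.82 CPM, that is by −0.14 ± 0.05 on the log2 scale (adjusted p = 0.0163). Genes of 5000 to 7000 bases had a positive median, and against them length correction gave Slc7a1 a larger fall of −0.42 ± 0.05 (adjusted p = 1.4e-10). The call was lost with DESeq2 (−0.14, adjusted p = 0.0563), without untreated replicate 2 (−0.10, adjusted p = 0.134), without rapamycin replicate 3 (−0.11, adjusted p = 0.0951), with effective-length offsets (−0.15, adjusted p = 0.0961) and on log2(TPM + 1), where it was −0.03 ± 0.08 (adjusted p = 0.773). On log2(TPM + 1) the median over all genes tested was 0.09. The direction of Slc7a1 was negative in all 17 alternatives.

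Slc38a9 encodes a lysosomal transporter that senses arginine and passes the signal to the Rag GTPases and mTOR complex 1. The gene (ENSMUSG00000047789, mm10 chr13:112660751-112738749, plus strand, 8 annotated transcripts) was at 46.0, 50.7 and 44.2 CPM in untreated and 50.8, 56.8 and 54.98 CPM in rapamycin libraries. The highest untreated and the lowest rapamycin library nearly met. Its mean rose from 47.0 ± 3.33 to 54.2 ± 3.11 CPM, that is by 0.21 ± 0.07 on the log2 scale (adjusted p = 0.0082). The call was lost with length correction (0.07 ± 0.07, adjusted p = 0.443), without untreated replicate 3 (0.16, adjusted p = 0.0635) and without rapamycin replicate 2 (0.17, adjusted p = 0.0529), and the value on log2(TPM + 1) was 0.42 ± 0.10 (adjusted p = 0.0173).

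**Figure D3:**
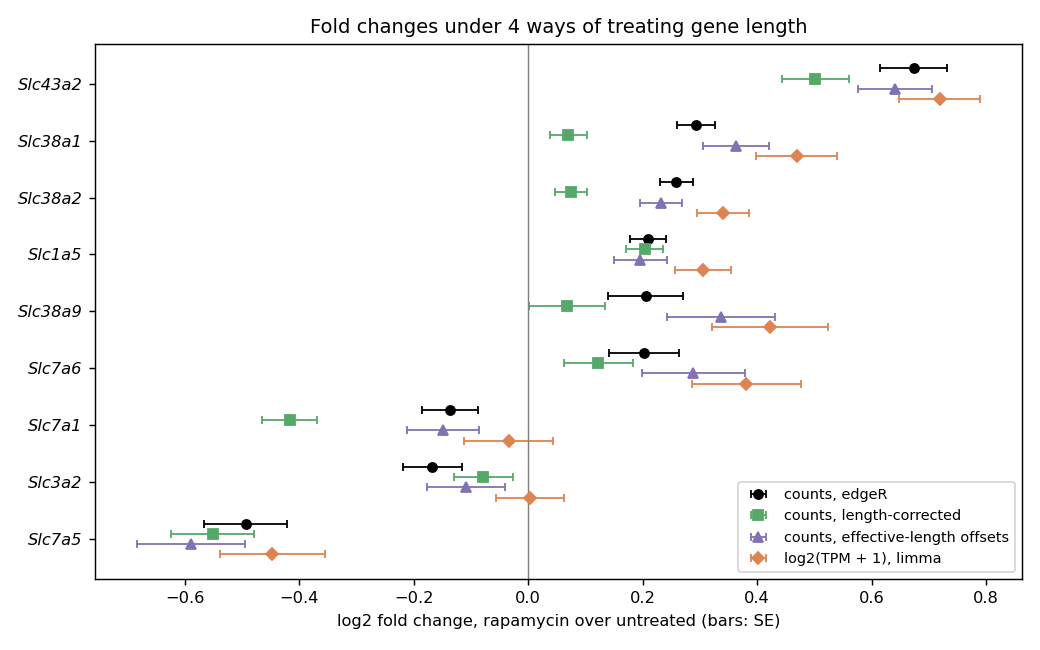
Log2 fold change (rapamycin over untreated) of the 9 tested amino acid transporter genes in 4 analyses: counts by edgeR, the same with length correction, the same with effective-length offsets, and log2(TPM + 1) by limma, with points for estimates and bars for ± SE. Slc43a2 (0.67, 0.50, 0.64 and 0.72) and Slc7a5 (−0.49, −0.55, −0.59 and −0.45) stay on their side in each analysis, while Slc3a2 goes from −0.17 to 0.00.

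Per length, the 10 genes spanned a wide range of levels. Untreated libraries had Slc1a5 highest at 130.7 ± 1.21 TPM (SD, n = 3), followed by Slc38a2 at 76.2 ± 1.94, Slc3a2 at 74.1 ± 2.54 and Slc38a1 at 41.5 ± 3.55 TPM. Slc7a5 at 22.0 ± 2.25, Slc7a6 at 21.1 ± 0.413 and Slc7a1 at 19.3 ± 1.09 TPM came next, then Slc43a2 at 15.9 ± 0.461, Slc38a9 at 14.9 ± 0.886 and Slc7a11 at 0.0467 TPM. Slc38a2 and Slc3a2, Slc7a5 and Slc7a6, and Slc43a2 and Slc38a9 were neighbours whose libraries overlapped, so that their order is not settled by these data. In rapamycin libraries Slc1a5 (161.9 ± 9.79), Slc38a2 (96.8 ± 2.86), Slc3a2 (74.3 ± 4.75) and Slc38a1 (57.7 ± 1.22 TPM) kept the first places. Slc7a6 at 27.9 ± 3.22 and Slc43a2 at 26.7 ± 0.777 TPM followed and overlapped, then Slc38a9 at 20.4 ± 2.25 and Slc7a1 at 18.8 ± 0.583 TPM, which also overlapped. Slc7a5 was ninth of the 10, at 15.8 ± 0.376 TPM, below every library of Slc7a1, where it was number 5 in untreated libraries. Among 21974 protein-coding genes ranked by mean TPM over the 6 libraries, Slc1a5 was 778th and Slc38a9 6113th, with the other 7 detected genes between them, and Slc7a11 was 13636th. The summed TPM of the 10 genes was 415.8 ± 6.06 in untreated and 500.4 ± 9.97 in rapamycin libraries. This is a log2 difference of 0.27, where the median over all genes tested was 0.09 on log2(TPM + 1). By counts with length correction, the median log2 fold change of the 9 tested transporter genes was 0.07. The difference in the sum was not tested.

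**Figure D4:**
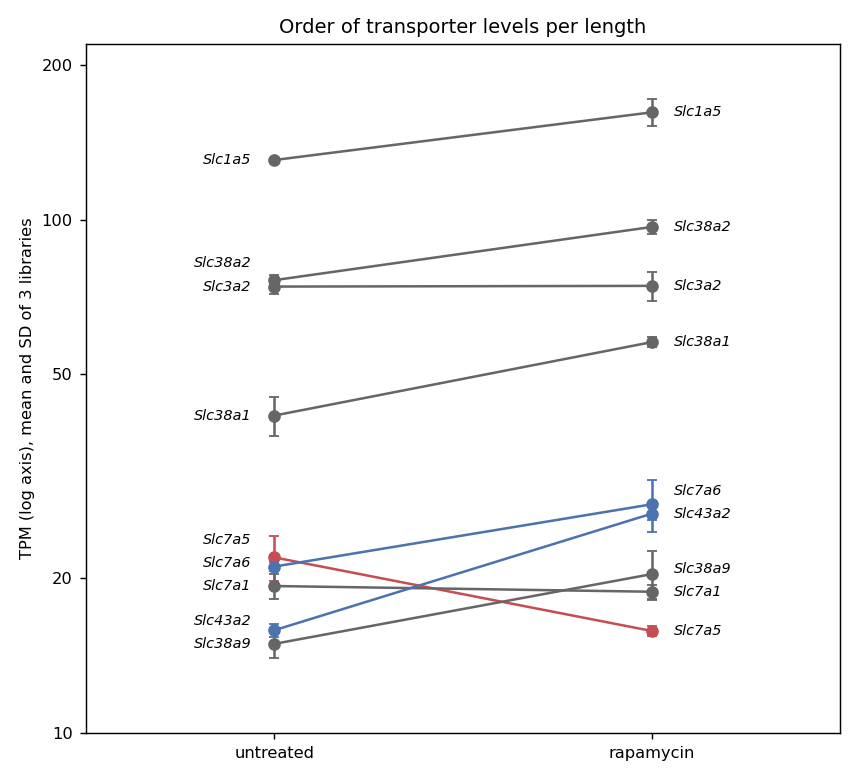
Mean level of the 9 detected amino acid transporter genes in TPM on a log axis, untreated at left and rapamycin at right, with each gene joined by a line and bars of ± SD over 3 libraries; Slc7a5 is red, Slc7a6 and Slc43a2 are blue, the others are grey, and Slc7a11 is not drawn. Slc7a5 goes from 22.0 to 15.8 TPM and is then below Slc7a6, Slc43a2, Slc38a9 and Slc7a1.

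The genes whose profile over the 6 libraries was most like that of Slc7a5 were Isyna1, which encodes inositol phosphate synthase, Naa10, a subunit of an N-terminal acetyltransferase, and Use1, a membrane fusion protein. Likeness was the root mean square distance between log2 CPM profiles centred on each gene's mean, over 7253 genes, and was 0.0193, 0.0397 and 0.0428. Their log2 fold changes were −0.51, −0.47 and −0.48. For Slc3a2 they were Lrrc8d, a subunit of volume-regulated anion channels, at a distance of 0.0196, the chaperonin subunit gene Tcp1 at 0.0225 and the lipid peroxide reductase gene Gpx4 at 0.0232, with log2 fold changes of −0.17, −0.16 and −0.15. Each profile has 6 points, which come from the same libraries for every gene. Because the genes were chosen by this distance, their fold changes lie near that of Slc7a5 or Slc3a2 by construction.

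Among 47 other amino acid transporter genes listed, 46 were found, 23 were at 0 in all libraries and 14 were tested. Of those, 3 were higher, Slc6a19, Slc38a10 and Slc38a6, 2 were lower, Slc1a4 and Slc16a10, and 9 were not called, with a median log2 fold change of −0.02 against −0.01 over all genes tested. This is 5 of 14 called, where 47.4% of all genes were. Length correction made it 3 higher and 3 lower, with a median of −0.09, adding Slc36a4 at −0.47 (adjusted p = 0.00118). This gene was not called by edgeR without the correction (−0.22, adjusted p = 0.123) or with effective-length offsets (−0.21, adjusted p = 0.2455). Nor was it called by limma on log2(TPM + 1) (−0.07, adjusted p = 0.702). Slc6a19, which encodes the neutral amino acid transporter B0AT1 known from intestine and kidney, had 1, 2 and 5 counts in untreated and 68, 62 and 56 counts in rapamycin libraries. Scaled for library size, its pooled counts of 8 and 186 gave a level 27.8-fold higher with rapamycin, with an exact 95% interval of 13.8 to 65.4 that covers counting error only. Its mean went from 0.262 ± 0.220 to 6.97 ± 0.469 CPM, that is by 4.72 ± 0.38 on the log2 scale (adjusted p = 1.3e-16), by 5.55 without untreated replicate 3, and by 1.72 on log2(TPM + 1), a scale that shrinks changes of low genes. Slc1a4, which encodes ASCT1, an exchanger of alanine, serine and cysteine related to ASCT2, had 24, 25 and 22 counts in untreated and 3, 1 and 1 in rapamycin libraries. Its pooled level was 11.9-fold higher in untreated cells (exact 95% interval 4.86 to 37.7), and its log2 fold change was −3.48 ± 0.55 (adjusted p = 2.5e-07), −4.14 without rapamycin replicate 1 and −0.76 on log2(TPM + 1). Both were called in the same direction in all 17 alternatives, on low counts in every library, and both were far larger than any change among the 10 genes above.

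Of the more abundant other transporters, Slc38a10, a family relative of Slc38a1, had a mean of 118.7 CPM without and 131.5 CPM with rapamycin, a rise of 0.15 ± 0.04 on the log2 scale (adjusted p = 0.00174) that kept its call in all 17 alternatives. Slc16a10, the aromatic amino acid transporter TAT1, fell from 13.9 ± 0.442 to 10.8 ± 0.213 CPM (−0.36 ± 0.13, adjusted p = 0.0172), a call lost in 5 alternatives, among them log2(TPM + 1) at −0.11 ± 0.23. Slc38a6 had a log2 fold change of 0.32 ± 0.13 (adjusted p = 0.0311), with groups that overlapped and a call lost in 8 alternatives. The taurine transporter gene Slc6a6 (83.3 and 89.4 CPM, adjusted p = 0.0877), the lysosomal exporter gene Slc36a1 (56.4 and 59.6 CPM, adjusted p = 0.279) and the lysosomal glutamine exporter gene Slc38a7 (17.5 and 15.4 CPM, adjusted p = 0.191) were not called.

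**Figure D5:**
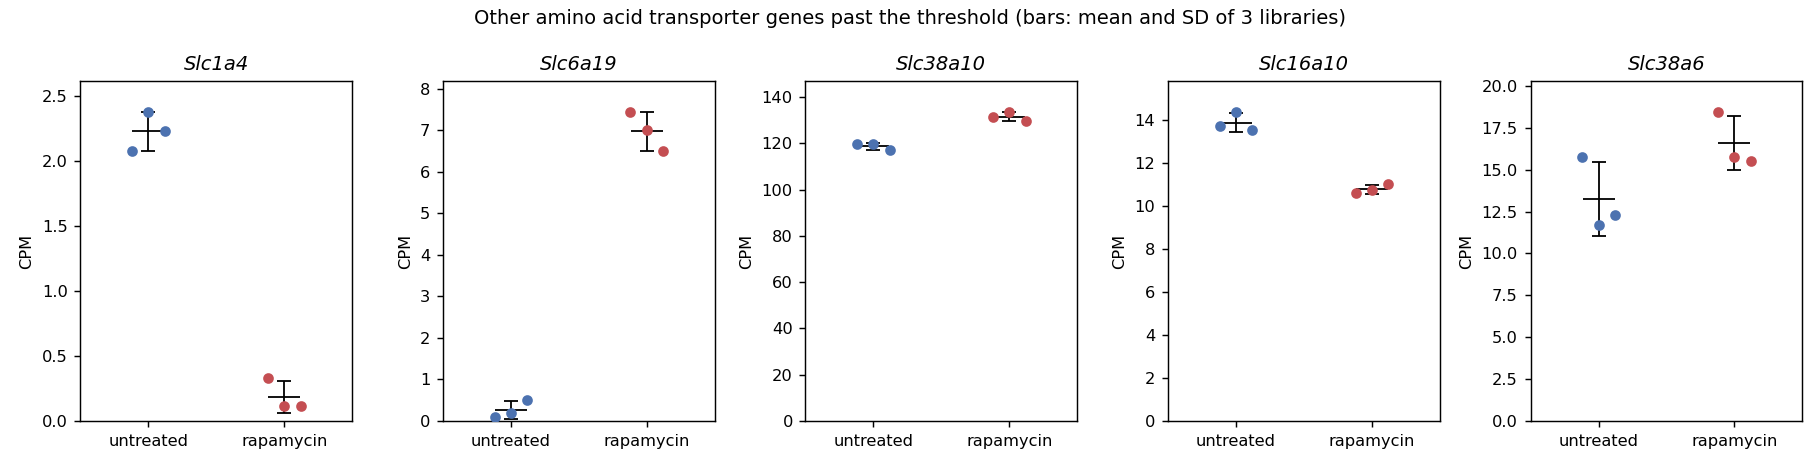
Level in CPM of the 5 called genes among the other amino acid transporters, on linear axes that start at 0, with blue points for 3 untreated and red points for 3 rapamycin libraries and bars for the mean ± SD. Slc6a19 lies at 0.0867 to 0.508 CPM in untreated and 6.49 to 7.43 CPM in rapamycin libraries, Slc1a4 at 2.08 to 2.38 and 0.113 to 0.328 CPM, while the points of Slc38a6 overlap between the groups.

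Of 18 genes for enzymes that use imported amino acids, 12 were tested, 3 were higher and 4 lower, with a median log2 fold change of −0.10 (2 higher, 3 lower and −0.07 with length correction). The 7 of 12 called compare with 47.4% of all genes tested and 64.2% of those at higher levels, so this count is near the background. Odc1, which makes the polyamine putrescine from ornithine, fell from 44.3 ± 1.78 to 26.3 ± 2.87 CPM, that is by −0.75 ± 0.08 on the log2 scale (adjusted p = 5.1e-12). Dbt, a subunit of the branched-chain keto acid dehydrogenase, changed by −0.35 (adjusted p = 0.00519), Bcat2, the mitochondrial branched-chain aminotransferase, by −0.23 (adjusted p = 5.4e-04) and Gclm, of glutathione synthesis, by −0.28 (adjusted p = 0.0101, and 0.286 with length correction). Glul, glutamine synthetase, rose by 0.16 (adjusted p = 0.00779) and Mat2a, which makes S-adenosylmethionine, by 0.10 (adjusted p = 0.00921). The call of Dbt was lost on log2(TPM + 1) (adjusted p = 0.287), as was that of Gclm (0.124), and with effective-length offsets those of Dbt (0.0724), Glul (0.0992) and Mat2a (0.103) were lost.

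Of 13 listed regulators of transporter genes and proteins, all tested, 2 were called higher and 5 called lower, and the median was −0.05 (2 higher, 3 lower and 0.01 with length correction). These 7 of 13 are near the 47.4% called among all genes. Atf4, a transcription factor that activates amino acid transport genes, fell from 231.5 ± 3.91 to 203.6 ± 2.81 CPM, that is by −0.18 ± 0.03 on the log2 scale (adjusted p = 7.3e-07), or −0.11 ± 0.03 with length correction. Txnip, an arrestin that restrains nutrient uptake, rose from 706 ± 25.5 to 923 ± 12.5 CPM (0.39 ± 0.02, adjusted p = 2.8e-23). Bach1, a repressor at antioxidant response elements, rose by 0.40 ± 0.07 (0.19 with length correction). Keap1, which restrains NRF2, changed by −0.26, the lysosome regulator gene Tfeb by −0.32, the stress gene Ddit3 by −0.37 and Myc by −0.11 ± 0.04 (adjusted p = 0.0289). The calls of Ddit3 and Myc were lost with length correction, at −0.09 and −0.06, and those of Tfeb (adjusted p = 0.169), Ddit3 (0.0542) and Myc (0.942) on log2(TPM + 1). With effective-length offsets, Tfeb (adjusted p = 0.056) and Myc (0.116) were not called. Nfe2l2, which encodes NRF2, was at 81.5 ± 3.32 and 81.4 ± 2.40 CPM.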

How the data were processed

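Poly(A) RNA of 3 untreated and 3 rapamycin libraries was measured. STAR, RSEM and the build mm10 are named in the submitters' processing notes; versions and the strand setting are not given in the sources used here. The deposited tables list 55487 genes with 5 measures each, per the file headers. The authors' RSEM output gives expected counts, in which reads shared by several genes are divided by estimate, so that values need not be whole. TPM and FPKM were scaled by the authors for effective length and depth, and lengths and effective lengths are deposited in bases. GENCODE vM21 on GRCm38 gave symbols and positions for 55227 identifiers, and 260 had no match.

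After rounding of the expected counts, filterByExpr left 11950 genes, and TMM gave the scaling factors. The comparison of the groups used edgeR's quasi-likelihood test (robust, with no term besides group), with Benjamini-Hochberg adjustment over all genes tested and a threshold of 0.05. SD is over 3 libraries a group. SE is that of the log2 fold change, derived from the test statistic of each fit, whose variance is moderated across genes. TPM was tested with limma on log2(TPM + 1), which understates changes of low genes. The length correction fitted, for each library, a smooth curve (spline, 5 degrees of freedom) of log2 CPM deviations against log2 gene length, from genes averaging a log2 CPM of 2 or more, and used it as offsets. FPKM served only for a ratio. Ratios had exact two-sided permutation tests. The procedure was tested on simulated data. Alternatives were other composition factors (RLE, upper-quartile, none), DESeq2, no filter, at least 2 CPM in at least 3 libraries, log2(TPM + 1), log2(TPM + 0.1), effective-length offsets, length correction, the replicate number as a block and leaving out each library.

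The 10 genes and the lists were chosen with earlier results of these data known. From a context list, up to 8 genes past the threshold by adjusted p and the 4 highest by TPM could be named, and the 3 genes nearest to Slc7a5 and to Slc3a2 among those averaging a log2 CPM of 4 or more. Of the marker lists, summed levels are given, with single genes where members of a list went different ways. Some listed genes are counted but not named. The floor of 3 counts was at most 0.348 CPM, and intervals cover counting error only. Versions were Python 3.11.15 with pandas 2.3.3, scipy 1.17.1 and matplotlib 3.10.9, and R 4.3.3 with DESeq2 1.42.0, limma 3.58.1 and edgeR 4.0.16.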

Additional observations from a re-analysis of the deposited data

How the results depend on the processing

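Against 6 transporter genes higher and 3 lower, length correction left 3 higher, and log2(TPM + 1), log2(TPM + 0.1) and effective-length offsets left 1 lower. Slc3a2 turned sign at 0.0033 on log2(TPM + 1) and 0.0033 on log2(TPM + 0.1), where the medians over all genes were 0.09 and 0.10. Leaving out 1 library gave 5 to 6 higher and 2 to 3 lower genes. Of the other transporters, 2 were lower, and 1 with DESeq2, with both TPM fits, with effective-length offsets and without untreated replicate 2. Leaving out 1 library gave 2 to 3 higher and 1 to 2 lower. The log2 difference in the ratio of Slc7a5 to Slc3a2 was −0.47, and −0.53 to −0.36 without 1 library, where the exact permutation p cannot go below 0.2. The cause of these shifts was not tested. Of all genes called, 50.8% were higher, 42.5% with upper-quartile factors, 42.8% without composition factors and 70.3% on log2(TPM + 1).

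Replicate numbers are shared by label only: same-numbered libraries had correlations of −0.062, −0.031 and −0.064 in their deviations from group means. With the replicate number as a block, 6 transporter genes were higher and 3 lower, with 2850 and 2743 calls over all genes, and no library correlated best with its own number. Depth limited Slc7a11.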

Other observations

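The lengths that RSEM assigned overlapped between the groups for 9 of the 10 genes and did not for Slc38a9. Groups were also apart for 17.7% of the 9903 tested genes whose length varied between libraries, so 1 of 10 is no more than the background. The Slc38a9 lengths were 4363, 4443 and 4346 bases in untreated and 4165, 3761 and 4040 bases in rapamycin libraries, which did not overlap (exact two-sided permutation p = 0.1, the smallest that 3 against 3 allow). RSEM's length is a mean over a gene's transcripts weighted by their estimated abundance. Those of Slc7a6 were 3520, 3581 and 3601 bases in untreated and 3549, 3178 and 3309 bases in rapamycin libraries, with overlap. For both genes the change in TPM was larger than that in CPM. This was also true of Slc1a5 (0.30 on log2(TPM + 1) and 0.21 by counts) and Slc38a2 (0.34 and 0.26). The median over all genes tested was 0.09 on log2(TPM + 1) and −0.01 by counts. A larger value in TPM is thus not particular to Slc38a9 and Slc7a6.

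Slc7a5 lies within the span of Gm20388 (mm10 chr8:119910841-124345722), annotated on the other strand. Gm20388 was at 57.6, 44.1 and 41.3 CPM in untreated and 57.2, 19.0 and 19.9 CPM in rapamycin libraries (−0.57 ± 0.51 on the log2 scale, adjusted p = 0.44 by edgeR). Rapamycin replicate 1 was at the level of untreated replicate 1 for this gene, whereas Slc7a5 was at 33.8 to 34.6 CPM in all 3 rapamycin libraries.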
